A study of Mus musculus with 9 samples.

Results

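The thioredoxin and peroxiredoxin system was followed through 10 genes, Txn1, Txn2, Txnrd1, Txnrd2, Srxn1, Prdx1, Prdx2, Prdx3, Prdx5 and Prdx6, which were taken by symbol from a table of 16509 genes. All 10 genes were listed in the table and all 10 passed the filter on low counts. The RNA came from cultured MC38 cells, which derive from a colon carcinoma of the mouse, and was sequenced in 3 groups of 3 libraries. Ctrl cells received only a vehicle, which the sample labels name as DMSO and the methods of the study as PBS. Cu-Cys cells received copper chloride combined with cystine. Cadict cells received a nanoparticle that joins Cu-Cys to glucose oxidase, an enzyme that turns glucose into gluconic acid and hydrogen peroxide, and that carries GE11, a peptide that binds the epidermal growth factor receptor. The groups share the same cell line, no genetic change is named for any of them, and the dose and exposure time of the sequenced cells are not given in the sources used here. Columns labelled CC were read as Cu-Cys, and columns labelled CCGE were read as Cadict from the initials of its parts. The methods of the study say in general that experiments in vitro were independently repeated and that n counts biological replicates. The figure legends give an n for the sequencing, but no source states whether these libraries came from separate cultures. The p-values therefore measure the spread between these libraries, which may be technical.

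Thioredoxins are small proteins that reduce disulfide bonds in other proteins and are then themselves reduced by thioredoxin reductases, selenoproteins that draw electrons from NADPH. Peroxiredoxins remove hydrogen peroxide with a reactive cysteine, and most of them are returned to the reduced state by thioredoxin. Sulfiredoxin, the product of Srxn1, repairs peroxiredoxins whose cysteine has been oxidised too far. Txn1, Txnrd1, Prdx1, Prdx2 and Prdx6 act mainly in the cytosol, Txn2, Txnrd2 and Prdx3 in mitochondria, and Prdx5 in several compartments. Several genes of the system are textbook targets of NRF2, a transcription factor that is stabilised by oxidants and electrophiles and binds the antioxidant response element.

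The upstream sequences of 3 members are shown first because they carry the letters of that element or of the related AP-1 site. RefSeq promoter windows on GRCm38.p6 were found for 9 of the 10 genes, with 11 windows in all, and the 250 bases before each start site were searched on both strands for 5 motifs. TGACNNNGC is the core of the antioxidant response element, TGANTCA is the AP-1 site, and TGANTCAGC joins the AP-1 site to the last letters of the element, so that its matches are also TGANTCA matches. In the stretches that follow, written 5′ to 3′ on the + strand, capitals mark matches to TGACNNNGC or TGANTCA.
Srxn1: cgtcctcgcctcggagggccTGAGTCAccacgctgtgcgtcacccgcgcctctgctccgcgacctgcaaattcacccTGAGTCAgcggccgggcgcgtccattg
Prdx1: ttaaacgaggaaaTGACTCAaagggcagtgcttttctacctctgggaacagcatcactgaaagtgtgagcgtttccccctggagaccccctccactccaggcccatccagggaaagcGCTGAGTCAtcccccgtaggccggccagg
Txnrd1: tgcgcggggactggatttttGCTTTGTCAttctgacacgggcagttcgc
The Srxn1 stretch, chr2:152105402-152105505, spans positions -122 to -19 from the start site and holds 2 TGANTCA matches. Of all 32851 promoter windows, 0.338% held 2 or more in the 250 bases before the start. The Srxn1 match nearer to the start is followed by GC and so also fits TGANTCAGC, a motif found in 1.02% of all windows. The Prdx1 stretch, chr4:116685349-116685494, spans positions -250 to -105 and holds a TGANTCA match and, on the other strand, a match to both TGACNNNGC and TGANTCAGC. Prdx1 thus also has 2 TGANTCA matches. The Txnrd1 stretch, chr10:82859094-82859142, spans positions -112 to -64 from 1 of the 3 Txnrd1 starts listed and holds a TGACNNNGC match on the other strand. TGACNNNGC was found in 10.2% and TGANTCA in 6.75% of all windows. None of these 3 motifs was found in the windows of the other 6 genes, Txn1, Txn2, Txnrd2, Prdx2, Prdx3 and Prdx5. TGATGNAA, an ATF4-type site present in 3.45% of all windows, was found before none of the 9 genes, and TGCACNC or TGCGCNC, the metal response element present in 21.4%, was found before Srxn1 and Txnrd2. These matches describe letters and are not evidence of binding.

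The libraries held between 17905771 and 18293056 expected counts each, so depth differed little between groups. The 100 genes with the most counts took 17.2 to 18.2% of the counts in Ctrl and Cu-Cys but 29.8 to 31.1% in Cadict. Counts were scaled by the trimmed mean of M-values (TMM), which sets the middle of the genes equal between libraries and gives CPM, counts scaled to a common library size. The TMM factors were 1.26 to 1.27 in Ctrl, 1.21 in Cu-Cys and 0.640 to 0.665 in Cadict. Scaling by library totals instead shifted the middle of the 11949 tested genes. On the log2 scale the shift of their median was -0.95 for Cadict over Ctrl, -0.07 for Cu-Cys over Ctrl and -0.88 for Cadict over Cu-Cys. The counts of called genes in the Cadict comparisons are therefore also given with library totals. Cadict replicate 2 stood apart, with a chi-square per degree of freedom over genes of 14.7 and 23.1 against the other Cadict libraries, compared with 3.64 between those other libraries and 1.88 to 4.53 within Ctrl and Cu-Cys. MC38 is of epithelial origin, yet 8 epithelial markers, 7 of them listed, summed to only 4.22 to 6.24 TPM (a level scaled by transcript length and library) in Ctrl, 3.50 to 3.95 in Cu-Cys and 11.6 to 13.3 in Cadict, and Epcam and Cldn7 were at 0 in every Ctrl and Cu-Cys library. Leukocyte markers, 5 of 7 listed, summed to 6.89 to 7.47, 4.57 to 5.63 and 14.9 to 18.2 TPM in the same order, nearly all of it Cd68, with Ptprc between 0.01 and 0.07 TPM. All 8 stromal markers were listed and summed to 293 to 319, 156 to 162 and 28.5 to 35.6 TPM, most of it Col1a2. The part of these marker shifts in the results was not tested.

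Measured per length, Prdx1 was the most abundant member in each group, at 1111 ± 32.5 TPM in Ctrl (SD, n = 3), followed by Txn1 at 771 ± 25.1. Prdx2 at 349 ± 7.77 TPM and Prdx6 at 174 ± 5.87 TPM came next in Ctrl, and each of these 4 levels lay apart from its neighbours in all 3 libraries. Txnrd1 at 146 ± 1.19 TPM, Txn2 at 142 ± 5.90 TPM and Prdx3 at 135 ± 3.70 TPM followed, and neighbours in this order overlapped. Prdx5 (64.1 ± 2.67 TPM), Srxn1 (46.9 ± 1.79 TPM) and Txnrd2 (11.02 ± 1.05 TPM) were the lowest, each apart from the next. In Cu-Cys the order was similar, except that Srxn1, at 79.4 ± 0.638 TPM, lay above Prdx5, at 61.8 ± 6.09 TPM, and that Txnrd1 overlapped Prdx6. In Cadict, Txnrd1 stood in second place at 888 ± 146 TPM, and its libraries overlapped those of Txn1 at 742 ± 27.2 TPM.

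Expressed as a share of the summed TPM of the 10 genes, which does not depend on the scaling between libraries, Txnrd1 made up 4.81 to 5.08% in Ctrl, 6.17 to 6.70% in Cu-Cys and 19.2 to 25.3% in Cadict. The 5 peroxiredoxins together made up 61.4 to 62.6% of the sum in Ctrl, 57.3 to 58.6% in Cu-Cys and 48.0 to 51.5% in Cadict. The 2 thioredoxins made up 30.3 to 31.6%, 32.1 to 33.8% and 24.4 to 27.3% in the same order. The peroxiredoxin share was thus smaller in each treated library than in each Ctrl library, and the thioredoxin share was smaller in Cadict only. Shares of a sum trade off, so a larger Txnrd1 share lowers the other shares even where their own TPM holds. From Ctrl to Cadict, mean TPM went from 771 to 742 for Txn1 and from 142 to 252 for Txn2. It went from 1111 to 1146 for Prdx1 and from 174 to 380 for Prdx6. For Prdx2 it went from 349 to 276, for Prdx3 from 135 to 74.4 and for Prdx5 from 64.1 to 44.3.

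**Figure D1:**
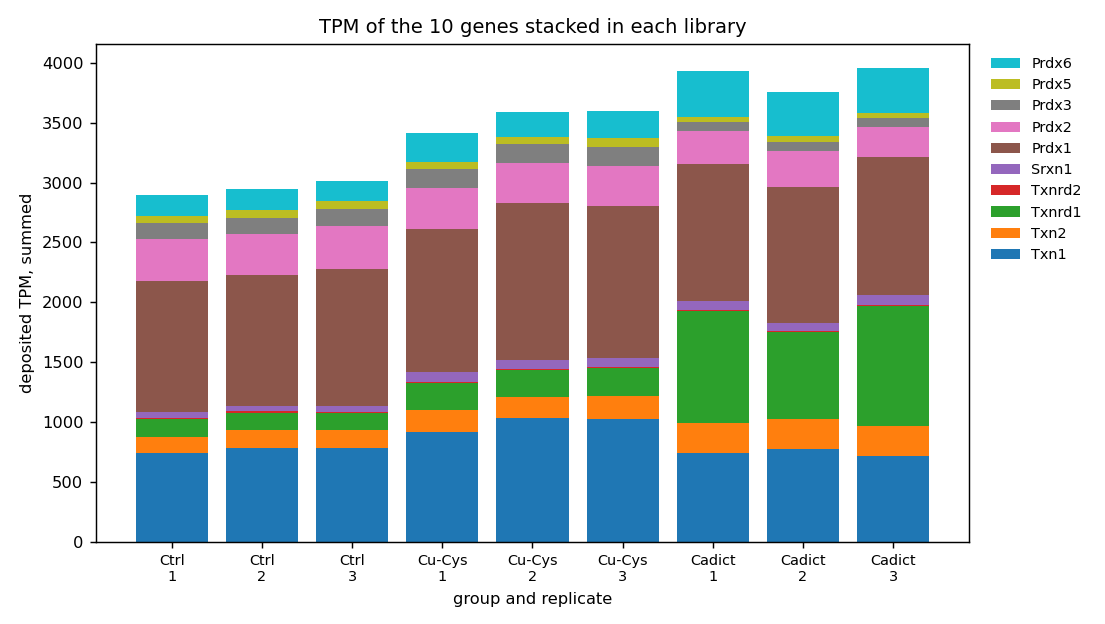
Deposited TPM of the 10 genes stacked for each of the 9 libraries, with group and replicate on the horizontal axis and summed TPM on the vertical axis. The Txnrd1 segment grows from 4.81 to 5.08% of the stack in Ctrl to 19.2 to 25.3% in Cadict, and the Prdx1 segment is the largest in every library.

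Genes were called changed at an adjusted p of at most 0.05 in edgeR's quasi-likelihood test. In Cadict against Ctrl, all 10 genes were called higher, where 40.6% of all tested genes were higher and 47.1% lower, and their median log2 fold change was 1.32, where that of all tested genes was -0.13. At the study's threshold, a fold change of at least 2 with an adjusted p of at most 0.001, 6 of the 10 genes passed, all higher (Txn1, Txn2, Txnrd1, Srxn1, Prdx1 and Prdx6). Of the 11949 tested genes 47.8% passed in either direction, and 2472 passed as higher. The number of the 10 genes past this threshold was 4 with library totals, where the share of all tested genes was not counted. With library totals, 6 genes were higher, Txnrd2 and Prdx3 were lower, and Prdx2 and Prdx5 did not pass. Of the 11949 tested genes, 2161 were higher and 8730 lower with that scaling. The median of the 10 genes was then 0.36, where that of all tested genes was -1.08. With TMM all 10 genes lay above the median of all tested genes, by 0.58 (Prdx3) to 4.02 (Txnrd1) on the log2 scale. In TMM-scaled CPM, Cadict replicate 2 was the highest Cadict library for Txn1, Txn2 and the 5 peroxiredoxins and the lowest for Txnrd1 and Txnrd2. In TPM that library was instead the lowest for Prdx1, Prdx3 and Prdx6. Without it all 10 genes were still called higher than in Ctrl, with log2 fold changes from 0.39 (Prdx3) to 3.95 (Txnrd1). In these bulk samples, fewer cells of a type and less RNA per cell cannot be told apart.

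The changes brought by Cu-Cys over Ctrl were smaller. Of the 10 genes, 7 were called higher and 0 lower, where 22.6% of all tested genes were higher and 22.4% lower, and Txnrd2, Prdx2 and Prdx5 did not pass. Their median log2 fold change was 0.45, where that of all tested genes was 0.01, and the same 7 to 0 split was found with library totals. With library totals 1846 of the 11949 tested genes were higher and 3448 lower. None of the 10 genes passed the study's threshold (0 in edgeR at that threshold, 0 by DESeq2, and 7 at an unadjusted p of at most 0.05), where 1.64% of all tested genes passed in either direction.

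Comparing the treated groups, 9 of the 10 genes were called higher in Cadict than in Cu-Cys and 0 lower, where 40.3% of all tested genes were higher and 45.6% lower. Prdx3 did not pass. The counts of lower genes were also 0 at an unadjusted p of at most 0.05 in edgeR and in the DESeq2 Wald test, in all 3 comparisons. At the study's threshold 5 of the 10 passed, all higher (Txn2, Txnrd1, Srxn1, Prdx1 and Prdx6). Of the 11949 tested genes 42.2% passed in either direction, and 2225 passed as higher. Only 1 of the 10 passed it with library totals, where the share of all tested genes was not counted. With that scaling 5 genes were higher, Prdx3 was lower and 4 did not pass, where 2062 of the 11949 tested genes were higher and 8598 lower. The 3 comparisons share libraries, so they are set side by side and not counted as separate evidence.

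**Figure D2:**
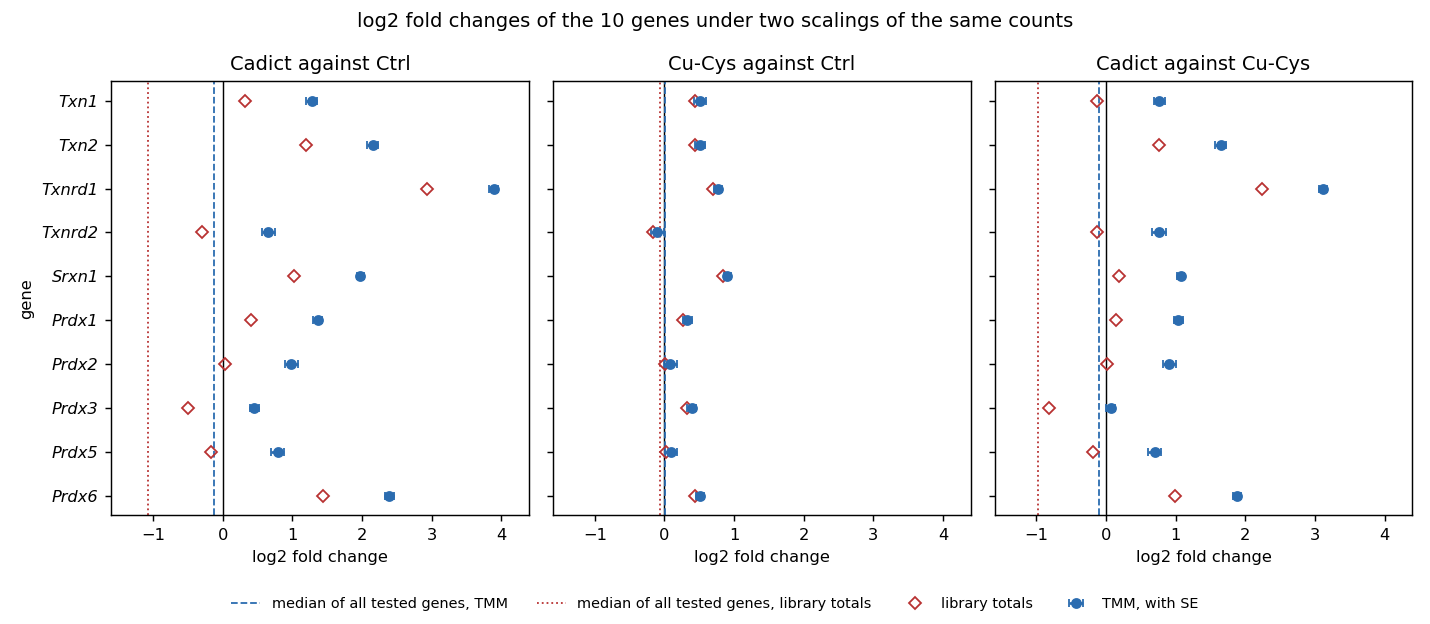
log2 fold changes of the 10 genes in the 3 comparisons, with TMM (filled points, bars show the SE) and with library totals (open diamonds), beside the median of all tested genes under each scaling (dashed and dotted lines). With TMM, all 10 points lie above 0 in Cadict against Ctrl, whereas with library totals Txnrd2, Prdx3 and Prdx5 lie below 0. In Cu-Cys against Ctrl the 2 scalings nearly coincide.

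Of the thioredoxin reductases, Txnrd1, the cytosolic enzyme, was measured at 207, 212 and 211 CPM in the Ctrl libraries, at 362, 354 and 359 CPM in the Cu-Cys libraries and at 3236, 2843 and 3261 CPM in the Cadict libraries. The groups did not overlap, Cadict was far above the others, and Cadict replicate 2 was the lowest of its group. Cadict exceeded Ctrl by a log2 fold change of 3.89 ± 0.06 (SE, n = 3 per group), a 14.8-fold higher level (edgeR adjusted p = 8.57e-17), and 1.46% of tested genes had a higher fold change. For Cu-Cys over Ctrl it was 0.77 ± 0.06 (edgeR adjusted p = 1.13e-07), exceeded by 1.54% of tested genes. Cadict exceeded Cu-Cys by 3.12 ± 0.06 (edgeR adjusted p = 7.08e-16). With library totals the Txnrd1 difference between Cadict and Ctrl was 2.94, and on log2(TPM + 1) it was 2.58. Without Cadict replicate 2 the TMM value was 3.95.

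Txnrd2, the mitochondrial reductase, was the least abundant member, with 137 to 198 expected counts per library. It was measured at 8.30, 7.23 and 8.63 CPM in Ctrl, at 7.34, 7.32 and 7.89 CPM in Cu-Cys and at 13.1, 11.9 and 13.01 CPM in Cadict. Ctrl and Cu-Cys overlapped and Cadict lay above both on this scale. The log2 fold change in Cadict against Ctrl was 0.65 ± 0.10 with TMM (edgeR adjusted p = 1.15e-05) but -0.30 with library totals (edgeR adjusted p = 0.0103), so its direction turned with the scaling. Cu-Cys differed from Ctrl by -0.10 ± 0.10 (edgeR adjusted p = 0.415).

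Txn1, the cytosolic thioredoxin, was measured at 246, 267 and 267 CPM in Ctrl, at 340, 390 and 382 CPM in Cu-Cys and at 606, 724 and 559 CPM in Cadict. The 3 groups did not overlap, and Cadict replicate 2 was the highest of its group. On the log2 scale Cadict exceeded Ctrl by 1.28 ± 0.08 (edgeR adjusted p = 5.13e-10) and Cu-Cys exceeded Ctrl by 0.51 ± 0.08 (edgeR adjusted p = 1.57e-04). The Cadict value of Txn1 was 0.32 with library totals and -0.06 on log2(TPM + 1), where it did not pass (limma adjusted p = 0.377). In Cadict against Cu-Cys it was 0.76 ± 0.08 with TMM, but -0.12 with library totals (edgeR adjusted p = 0.128).

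Txn2, the mitochondrial thioredoxin, was measured at 59.1, 65.8 and 64.4 CPM in Ctrl, at 89.1, 86.3 and 94.3 CPM in Cu-Cys and at 268, 318 and 257 CPM in Cadict. The groups did not overlap, and the Cadict libraries were the highest under each scaling. The rise from Ctrl to Cadict was 2.15 ± 0.08 on the log2 scale (edgeR adjusted p = 3.62e-13), and it was 1.20 with library totals and 0.83 on log2(TPM + 1). The rise from Ctrl to Cu-Cys was 0.51 ± 0.08 (edgeR adjusted p = 8.20e-05), the same to 2 decimals as for Txn1. Cadict exceeded Cu-Cys by 1.64 ± 0.07 (edgeR adjusted p = 8.16e-12).

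Srxn1, sulfiredoxin, was measured at 52.7, 57.3 and 53.7 CPM in Ctrl, at 102, 103 and 101 CPM in Cu-Cys and at 203, 216 and 225 CPM in Cadict. The groups did not overlap, and the Cu-Cys libraries were within a narrow range. Srxn1 had the largest log2 fold change of the 10 genes in Cu-Cys against Ctrl, 0.90 ± 0.05 (edgeR adjusted p = 1.98e-08), and 0.946% of tested genes exceeded it. In Cadict against Ctrl it was 1.98 ± 0.05 (edgeR adjusted p = 2.38e-14), and in Cadict against Cu-Cys 1.07 ± 0.05 (edgeR adjusted p = 2.24e-11). The rise over Ctrl held under each scaling, at 1.02 with library totals and 0.66 on log2(TPM + 1) in Cadict. The difference between Cadict and Cu-Cys was 0.19 with library totals and -0.09 on log2(TPM + 1), where it did not pass (limma adjusted p = 0.292).

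Prdx6, the peroxiredoxin with a single active cysteine that is recycled by glutathione, had the largest rise of the 5. It was measured at 138, 142 and 135 CPM in Ctrl, at 209, 185 and 196 CPM in Cu-Cys and at 717, 786 and 671 CPM in Cadict. The groups did not overlap, and the log2 fold change in Cadict against Ctrl was 2.39 ± 0.06 (edgeR adjusted p = 1.90e-14). It was 1.44 with library totals and 1.12 on log2(TPM + 1). Cu-Cys exceeded Ctrl by 0.51 ± 0.06 (edgeR adjusted p = 1.57e-05), and Cadict exceeded Cu-Cys by 1.88 ± 0.06 (edgeR adjusted p = 2.94e-13).

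Prdx1, the most abundant peroxiredoxin, was measured at 546, 560 and 591 CPM in Ctrl, at 677, 747 and 707 CPM in Cu-Cys and at 1414, 1607 and 1346 CPM in Cadict. The groups did not overlap. The log2 fold change over Ctrl was 1.36 ± 0.07 for Cadict (edgeR adjusted p = 1.40e-11) and 0.33 ± 0.06 for Cu-Cys (edgeR adjusted p = 8.28e-04). On log2(TPM + 1) the Cadict value of Prdx1 was 0.04 and did not pass (limma adjusted p = 0.402), and in Cadict against Cu-Cys it turned from 1.03 with TMM to -0.14. Of the distinct 50-base stretches of Prdx1 transcripts, 8.81% also occur in transcripts of 75 other annotated genes, and how reads from these were assigned was not tested.

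Prdx2, which acts beside Prdx1 in the cytosol, was measured at 180, 181 and 190 CPM in Ctrl, at 198, 194 and 192 CPM in Cu-Cys and at 347, 442 and 304 CPM in Cadict. On this scale the Cu-Cys libraries lay just above the Ctrl libraries without overlap, by a log2 fold change of 0.08 ± 0.09 that did not pass (edgeR adjusted p = 0.510). In TPM the order was reversed, with 329.6 to 339.8 in Cu-Cys and 341.6 to 357.1 in Ctrl. Cadict was above both with TMM, by 0.99 ± 0.09 over Ctrl (edgeR adjusted p = 7.31e-08), and its relative spread was the widest of the 10 genes (SD 70.5 CPM around a mean of 364). That value was 0.82 without Cadict replicate 2, 0.03 with library totals (edgeR adjusted p = 0.741) and -0.34 on log2(TPM + 1). Prdx2 shares 12.04% of its 50-base stretches with 4 other genes, among them the pseudogene Tdpx-ps1 and the opposite-strand neighbours Junb and Rnaseh2a, so its counts are uncertain, and by how much was not tested.

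Prdx3, a peroxiredoxin that resides in mitochondria and works with Txn2 and Txnrd2, was measured at 68.2, 70.2 and 73.6 CPM in Ctrl, at 90.8, 93.5 and 93.6 CPM in Cu-Cys and at 97.1, 105 and 88.8 CPM in Cadict. Both treated groups lay above Ctrl on this scale, and they overlapped each other. The log2 fold change was 0.39 ± 0.06 in Cu-Cys against Ctrl (edgeR adjusted p = 1.10e-04) and kept its sign under each scaling. In Cadict against Ctrl it was 0.45 ± 0.06 with TMM (edgeR adjusted p = 3.84e-06) but -0.50 with library totals (edgeR adjusted p = 4.95e-07). Cadict and Cu-Cys differed by 0.06 ± 0.06 with TMM (edgeR adjusted p = 0.328), by 0.16 with DESeq2 size factors (edgeR adjusted p = 0.0252) and by -0.82 with library totals (edgeR adjusted p = 8.63e-10). Prdx3 was thus the member nearest to the middle of all genes in Cadict, with 34.4% of tested genes above it in Cadict against Ctrl and 45.1% in Cadict against Cu-Cys.

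Prdx5, found in mitochondria, peroxisomes and cytosol, was measured at 26.5, 29.5 and 28.8 CPM in Ctrl, at 27.5, 29.8 and 33.2 CPM in Cu-Cys and at 46.1, 56.8 and 44.1 CPM in Cadict. Ctrl and Cu-Cys overlapped and differed by 0.09 ± 0.09 (edgeR adjusted p = 0.430). Cadict exceeded Ctrl by 0.79 ± 0.09 with TMM (edgeR adjusted p = 8.59e-07), a value that was -0.16 with library totals (edgeR adjusted p = 0.0922) and -0.52 on log2(TPM + 1). Prdx5 overlaps Trmt112 on the opposite strand over 19.1% of its exonic bases, and without strand the reads of the pair cannot be told apart.

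**Figure D3:**
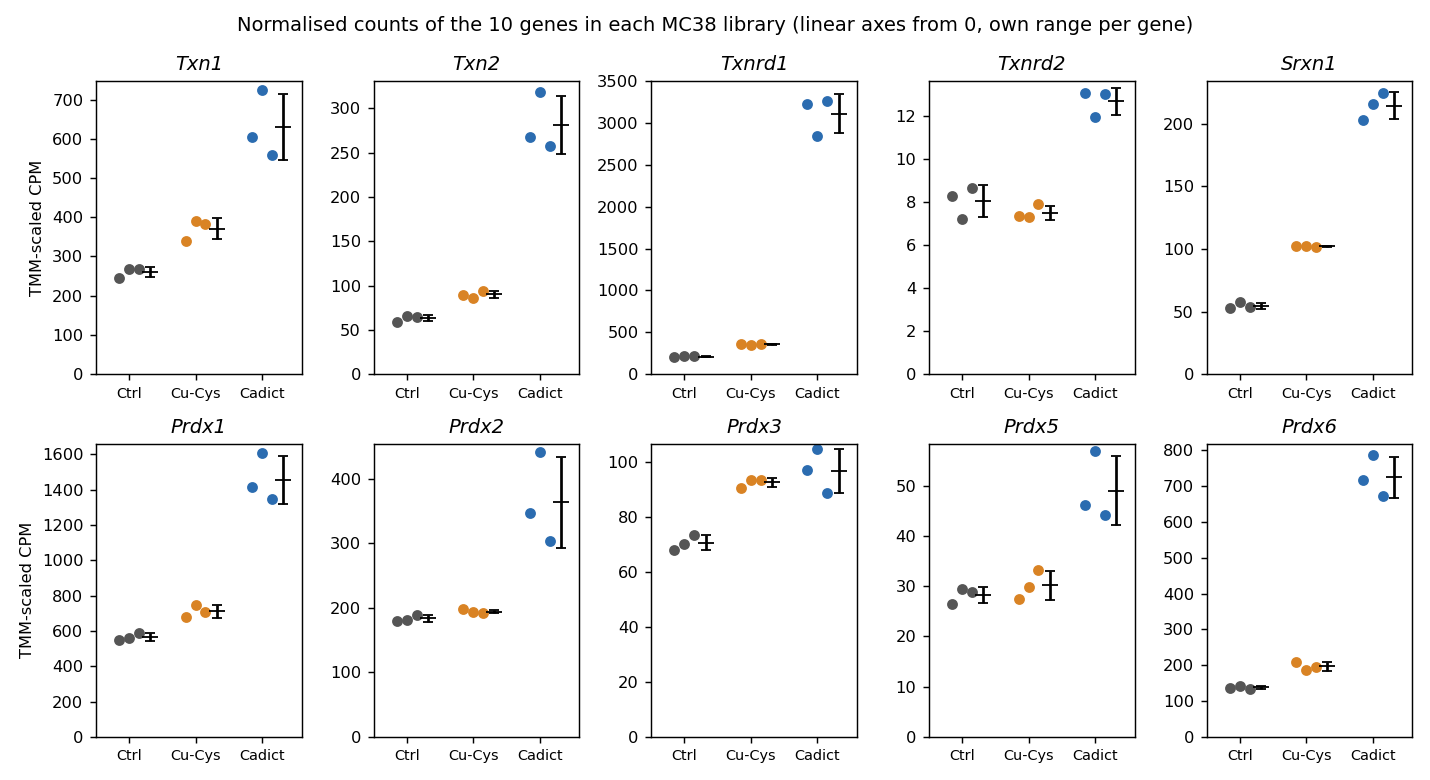
TMM-scaled CPM of each of the 10 genes in every library, by group, with black marks for the group mean and bars for the SD (n = 3). Each panel starts at 0 and has its own range. Txnrd1 rises from 207 to 212 CPM in Ctrl to 2843 to 3261 CPM in Cadict, while Prdx3 in Cadict overlaps Cu-Cys. With library totals, not drawn here, the log2 fold changes in Cadict against Ctrl were -0.30 for Txnrd2, -0.50 for Prdx3 and -0.16 for Prdx5. That of Prdx5 did not pass (edgeR adjusted p = 0.0922).

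Ratios of 2 genes within a library do not depend on the scaling between libraries. They were compared with a two-sided exact permutation test, whose smallest possible p at 3 against 3 is 0.1, so none could pass 0.05. After adjustment over the 18 tests, the tests at that p had an adjusted p of 0.129. The ratio of Txnrd1 to Txnrd2 counts was 24.9, 29.3 and 24.4 in Ctrl, 49.4, 48.3 and 45.5 in Cu-Cys and 247, 238 and 251 in Cadict. The 3 groups did not overlap, and the log2 ratio was higher by 3.23 in Cadict and by 0.87 in Cu-Cys than in Ctrl (exact permutation p = 0.1 for both). In every treated library the ratio lay above each Ctrl library.

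The ratio of Txn1 to Txn2 counts was 4.16, 4.06 and 4.14 in Ctrl, 3.82, 4.52 and 4.05 in Cu-Cys and 2.26, 2.28 and 2.18 in Cadict. Cadict lay below both other groups, with a log2 difference from Ctrl of -0.88 (exact permutation p = 0.1), and Cu-Cys overlapped Ctrl (exact permutation p = 1). For the peroxiredoxins, the ratio of Prdx1 to Prdx3 was 7.98 to 8.02 in Ctrl, 7.46 to 7.99 in Cu-Cys and 14.6 to 15.3 in Cadict, a log2 difference of 0.91 between Cadict and Ctrl (exact permutation p = 0.1) and of -0.06 between Cu-Cys and Ctrl (exact permutation p = 0.2). So relative to Ctrl, the Cadict ratio of the cytosolic to the mitochondrial gene was higher for the reductases and this pair of peroxiredoxins and lower for the thioredoxins.

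Srxn1 was compared with Prdx1, a peroxiredoxin that its product repairs. There were 0.0909 to 0.102 Srxn1 counts per Prdx1 count in Ctrl, 0.137 to 0.151 in Cu-Cys and 0.134 to 0.167 in Cadict. Both treated groups lay above Ctrl, by 0.58 for Cu-Cys and 0.61 for Cadict on the log2 scale (exact permutation p = 0.1 for both). They overlapped each other and differed by 0.04 (exact permutation p = 0.8), although Prdx1 and Srxn1 were both higher in Cadict with TMM. The log2 ratio of Prdx1 to Prdx2 exceeded that in Ctrl by 0.39 in Cadict and 0.25 in Cu-Cys (exact permutation p = 0.1 for both), and the treated groups overlapped (exact permutation p = 0.3). For Txnrd1 and its substrate Txn1 the log2 ratio exceeded Ctrl by 2.62 in Cadict and 0.26 in Cu-Cys (exact permutation p = 0.1 for both), a ratio that was added after the values had been seen. In Cadict the Txnrd1 to Txn1 difference was 2.79 without replicate 2, whose ratio of 3.93 lay below the 5.34 and 5.83 of the other Cadict libraries.

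**Figure D4:**
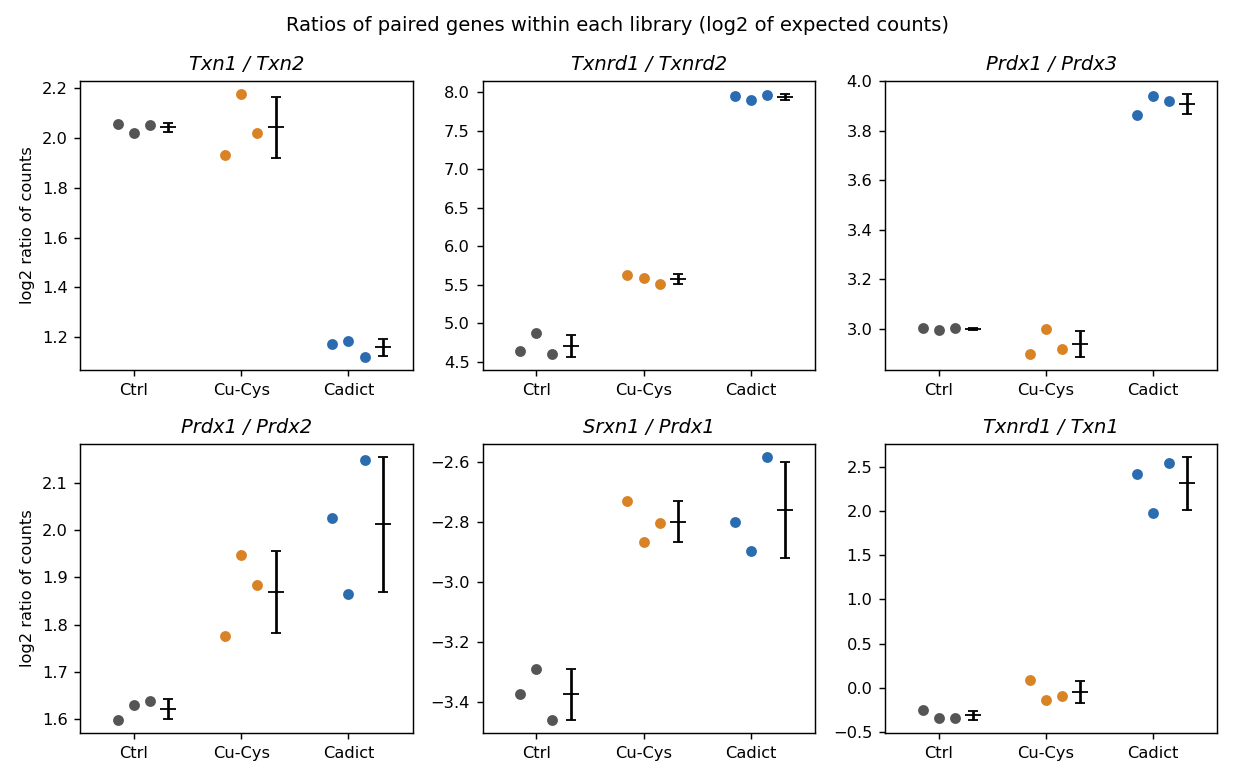
log2 ratios of expected counts of paired genes in each library, by group, with black marks for the group mean and bars for the SD (n = 3). The vertical axes do not start at 0. The ratio of Txnrd1 to Txnrd2 climbs from Ctrl through Cu-Cys to Cadict, that of Txn1 to Txn2 is lower in Cadict only, and that of Srxn1 to Prdx1 is higher in both treated groups.

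Relatives of the system were read from a list of 20 genes. Besides genes that hold thioredoxin folds, reduce disulfides or regulate thioredoxin, it included the sestrins Sesn1, Sesn2 and Sesn3. Between Cadict and Ctrl, 12 were higher, 6 lower and 2 did not pass, with a median log2 fold change of 0.84, where 40.6% of all tested genes were higher and 47.1% lower. With library totals 6 were higher and 9 lower, where 2161 of the 11949 tested genes were higher and 8730 lower. The highest were Sesn2 (3.39 ± 0.10), a stress-induced sestrin, Txnl1 (2.16 ± 0.05), a thioredoxin-like protein bound to the proteasome, and Txndc9 (1.84 ± 0.07). The lowest were the sestrins Sesn3 (-1.83 ± 0.28) and Sesn1 (-1.35 ± 0.12) and the membrane thioredoxin Tmx4 (-0.94 ± 0.06), so the sestrin family was split. Prdx4, the peroxiredoxin of the endoplasmic reticulum, was 1.55 ± 0.07 higher in Cadict, and its difference of 0.11 ± 0.07 in Cu-Cys did not pass. Txnrd3, a further thioredoxin reductase, went the other way in Cadict against Ctrl, at -0.23 ± 0.07 (edgeR adjusted p = 0.00774). With library totals Txnrd3 was at -1.18 in that comparison, and in Cu-Cys against Ctrl it was at 0.20 ± 0.06 with TMM. Txnip, which binds and inhibits thioredoxin, was -0.99 ± 0.13 in Cu-Cys against Ctrl and 0.82 ± 0.11 in Cadict against Ctrl, so that the Txnip change had opposite signs in the treated groups with TMM. With library totals Txnip in Cadict was at -0.14 against Ctrl (edgeR adjusted p = 0.287). With Cu-Cys over Ctrl, 7 relatives were higher, 5 lower and 8 did not pass (all tested genes, 22.6% higher and 22.4% lower). Between the treated groups, 12 of the 20 were higher in Cadict, 6 lower and 2 did not pass (all tested genes, 40.3% higher and 45.6% lower). That balance turned with library totals, to 7 higher and 11 lower, and the median went from 0.66 to -0.23. Among the 11949 tested genes, 2062 were higher and 8598 lower with that scaling, and their median went from -0.10 to -0.98.

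A further list held enzymes that depend on thioredoxin for electrons and proteins that it binds. Of 8 such genes tested, 4 were higher, 2 lower and 2 did not pass in Cadict against Ctrl, with a median of 0.12, where 40.6% of all tested genes were higher and 47.1% lower. The highest were the methionine sulfoxide reductases Msra (1.79 ± 0.09) and Msrb3 (0.61 ± 0.06) and the large subunit of ribonucleotide reductase Rrm1 (0.48 ± 0.05). The lowest were Map3k5 (-1.52 ± 0.09), the kinase ASK1 that thioredoxin holds inactive, the small subunit Rrm2 (-1.15 ± 0.05), and Apex1 (-0.15 ± 0.07), which did not pass (edgeR adjusted p = 0.0634). With library totals 1 was higher and 7 were lower, where 2161 of the 11949 tested genes were higher and 8730 lower. The sign turned for Msrb3 (-0.34), Rrm1 (-0.48) and another methionine sulfoxide reductase, Msrb1 (from 0.32 to -0.63). Between Cu-Cys and Ctrl, 2 were higher, 2 lower and 4 did not pass (all tested genes, 22.6% higher and 22.4% lower). Between the treated groups, 4 were higher in Cadict, 3 lower and 1 did not pass (all tested genes, 40.3% higher and 45.6% lower). This last split became 1 higher and 6 lower with library totals, and the median went from 0.27 to -0.61. Of the 11949 tested genes, 2062 were then higher and 8598 lower, and their median went from -0.10 to -0.98.

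Because Txnrd1 and Txnrd2 are selenoproteins, the 7 genes that make selenocysteine and insert it into proteins were read beside them. With Cadict over Ctrl, 2 were higher, 4 lower and 1 did not pass, with a median of -0.26, where 40.6% of all tested genes were higher and 47.1% lower. All 7 were lower with library totals, where 8730 of the 11949 tested genes were lower. The lowest were Pstk (-1.51 ± 0.12), the kinase that prepares the tRNA, Sephs2 (-1.12 ± 0.07), which makes the activated selenium donor, and Eefsec (-0.75 ± 0.07), the elongation factor that delivers selenocysteine. The highest were Scly (0.52 ± 0.06), which frees selenium from selenocysteine, Sepsecs (0.22 ± 0.09) and Trnau1ap (0.04 ± 0.10), the last of which did not pass. With library totals these became -0.43 for Scly, -0.73 for Sepsecs and -0.91 for Trnau1ap. Sephs2 was higher in Cu-Cys than in Ctrl by 0.57 ± 0.06. With Cu-Cys, 2 of the 7 were higher, 1 lower and 4 did not pass (all tested genes, 22.6% higher and 22.4% lower). Between the treated groups, 2 were higher in Cadict, 4 lower and 1 did not pass (all tested genes, 40.3% higher and 45.6% lower). Here too all 7 were lower with library totals, and the median went from -0.55 to -1.44. Of the 11949 tested genes, 8598 were also lower with that scaling, and their median went from -0.10 to -0.98.

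Of 18 other textbook NRF2 targets tested, 17 were higher, 0 lower and 1 did not pass in Cadict against Ctrl, where 40.6% of all tested genes were higher and 47.1% lower, with a median of 1.74 (at an unadjusted p of at most 0.05 the counts were also 17 and 0). With library totals 13 were higher and 3 lower, where 2161 of the 11949 tested genes were higher and 8730 lower. The highest were Hmox1 (9.65 ± 0.10), heme oxygenase, which rose from 23.2 to 18648 CPM, Gclm (3.50 ± 0.07), a subunit of the enzyme that starts glutathione synthesis, and the ferritin heavy chain Fth1 (2.78 ± 0.07). The lowest were Gsr (0.08 ± 0.05), glutathione reductase, which did not pass (edgeR adjusted p = 0.159), G6pdx (0.42 ± 0.05) and Ephx1 (0.74 ± 0.08), and with library totals these 3 were the lower ones, at -0.87, -0.53 and -0.21. Txnrd1, at 3.89, stood above all of these genes but Hmox1, whereas glutathione reductase, the enzyme with the matching task in the glutathione system, stood at the bottom. In Cu-Cys against Ctrl 15 were higher, 1 lower (Ephx1, -0.61 ± 0.08) and 2 did not pass, with a median of 0.61. Among all tested genes 22.6% were higher and 22.4% lower in this comparison. Gsr was 0.55 ± 0.05 higher in Cu-Cys. In Cadict against Cu-Cys 16 were higher, 1 lower (Gsr, -0.47 ± 0.05) and 1 did not pass, where 40.3% of all tested genes were higher and 45.6% lower. Library totals gave 12 higher and 4 lower in that comparison, the lower ones being Gsr (-1.36), G6pdx (-0.78), Nqo1 (-0.72) and Gclc (-0.62). Among the 11949 tested genes, 2062 were higher and 8598 lower with library totals.

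**Figure D5:**
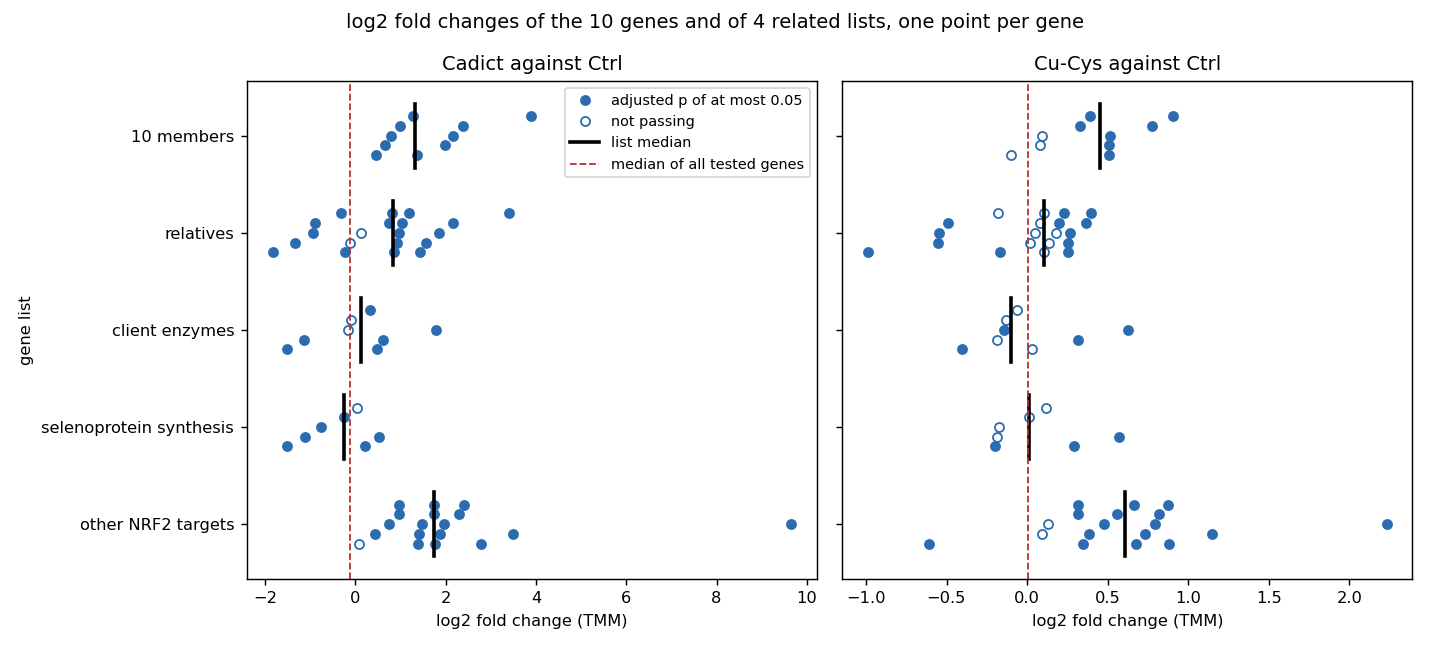
log2 fold changes with TMM in Cadict against Ctrl and in Cu-Cys against Ctrl for the 10 genes and the 4 lists, 1 point per gene, filled where the adjusted p was at most 0.05. Vertical bars are list medians and the dashed line is the median of all tested genes, and the horizontal scales of the panels differ. In Cadict against Ctrl the 10 genes (median 1.32, or 0.36 with library totals) and the other NRF2 targets (1.74, or 0.79) lie mostly above the line, and selenoprotein synthesis (-0.26, or -1.21) is spread around it.

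The genes whose pattern over the 9 libraries was nearest to Srxn1 and to Txnrd1 were found by Euclidean distance between log2 CPM values centred on Ctrl, among 8550 other genes with at least 10 CPM on average. Nearest to Srxn1 was Pgd, an enzyme of the pentose phosphate pathway that yields NADPH, at a distance of 0.159, followed by Tmem251 (0.339) and Fam110c (0.455). Pgd differed from Ctrl by 0.88 in Cu-Cys and 1.95 in Cadict on the log2 scale, beside 0.90 and 1.98 for Srxn1. Nearest to Txnrd1 were Ccn2 (0.297), a secreted matrix protein, Olfr1033 (0.329), an olfactory receptor gene, and Clcf1 (0.398), a cytokine. Ccn2 differed from Ctrl by 0.91 in Cu-Cys and 3.88 in Cadict, beside 0.77 and 3.89 for Txnrd1. Pgd is also 1 of the 18 NRF2 targets above, while the other 5 nearest genes are in none of the lists.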

How the data were processed

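RNA of 9 MC38 libraries (3 each of Ctrl, Cu-Cys and Cadict) was analysed from 1 deposited table of 16509 genes. The authors deposited, for each library, expected counts (reads estimated per gene, not normalized), FPKM and TPM (the authors' values per transcript length and library size). The submitters' processing notes name HISAT2 2.1.0, Bowtie2 2.3.4.3, RSEM 1.3.1 and the builds GRCm39 and GRCh38.p13. The methods of the study name TRIzol and an Illumina instrument, whereas the labels name a column kit and DNA nanoballs. Another 21 value columns, counts divided by size factors and averages, were not used.

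Expected counts, 9.16 to 10.3% of them not whole, were rounded and fitted in R 4.3.3 with edgeR 4.0.16 (TMM, filterByExpr, quasi-likelihood test, 3 groups in 1 fit, Benjamini-Hochberg adjustment over 11949 genes). The fit was tested on simulated data. Libraries held 17905771 to 18293056 expected counts, and 3 counts correspond to 0.164 to 0.168 CPM. Alternatives were other scalings and filters, a replicate block, DESeq2 1.42.0, limma 3.58.1 on log2(TPM or FPKM + pseudocount), and leaving out each library. Named were the 10 genes, the 3 highest and 3 lowest genes of each list in Cadict against Ctrl, and the 3 nearest patterns of Srxn1 and Txnrd1. Prdx4, Txnip and Txnrd3 were named after their values were seen, as were Sephs2, Ephx1 and Gsr in further comparisons. The members, lists and motifs were chosen with earlier results of these data known. Promoter sequences are from RefSeq (GRCm38.p6), and shared stretches of 50 bases and exon overlaps are from GENCODE M21 (GRCm38), which is not the authors' build.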

Additional observations from a re-analysis of the deposited data

How the results depend on the processing

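All 30 fold changes of the 10 genes kept direction and call when each of the 9 libraries was left out (270 values), with the filter of at least 10 counts, with the DESeq2 Wald test and with the replicate block. Same-numbered libraries did not deviate together (correlations from -0.19 to 0.16 over 8754 genes), so the number is not read as a pairing. With the block 10 of the 10 genes were called for Cadict over Ctrl, 7 for Cu-Cys over Ctrl and 9 between the treated groups, and paired sign flips of the ratios cannot give a p below 0.25.

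With library totals, and by limma in TPM or FPKM, where the unit and the test change together, 7 to 14 of the 30 fold changes changed sign, nearly all in the Cadict comparisons. Genes past the study's threshold in Cadict against Ctrl numbered 4 with library totals, 2 by limma on log2(TPM + 1) and on log2(TPM + 0.1) and 3 on log2(FPKM + 1). In Cadict against Cu-Cys they numbered 1 with library totals, 3 with no filter on low counts, and 2 with either TPM pseudocount and with FPKM. How many of all tested genes passed that threshold under these settings was not counted. Library totals gave 5 changed selenoprotein synthesis genes in Cu-Cys against Ctrl, and both TPM fits gave 11 changed NRF2 targets in Cadict against Cu-Cys.

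For Cadict over Ctrl, the log2 fold changes that changed sign were as follows, with TPM values for pseudocounts of 1 and 0.1. Txn1 was -0.056 for both in TPM. Txnrd2 was -0.30 with library totals, -0.59 and -0.65 in TPM and -0.26 in FPKM. Prdx2 was -0.34 and -0.35 in TPM and -0.00070 in FPKM. Prdx3 was -0.50 with totals, -0.85 and -0.86 in TPM and -0.51 in FPKM. Prdx5 was -0.16 with totals, -0.52 and -0.53 in TPM and -0.18 in FPKM.

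In Cadict against Cu-Cys, Txn1 was -0.12 with totals, -0.42 for both in TPM and -0.14 in FPKM. Txnrd2 was -0.13 with totals, -0.37 and -0.41 in TPM and -0.12 in FPKM. Srxn1 was -0.091 and -0.092 in TPM, and Prdx1 -0.14 for both. Prdx2 was -0.28 for both in TPM and -0.0085 in FPKM. Prdx3 was -0.82 with totals, -0.026 with no filter, -1.10 and -1.11 in TPM and -0.82 in FPKM. Prdx5 was -0.19 with totals, -0.47 for both in TPM and -0.20 in FPKM. In Cu-Cys against Ctrl, Prdx2 was -0.064 and -0.065 and Prdx5 -0.055 and -0.056 in TPM.

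Leaving out 1 library at a time, the log2 ratio of Txn1 to Txn2 in Cu-Cys against Ctrl ran from -0.067 to 0.055 and that of Srxn1 to Prdx1 in Cadict against Cu-Cys from -0.049 to 0.11, both through 0. The Cadict against Ctrl and Cadict against Cu-Cys counts past the study's threshold ran from 6 to 7 and from 4 to 6. Changed genes among the thioredoxin-dependent proteins in Cu-Cys against Ctrl ran from 2 to 5, with 2 without Cu-Cys replicate 1 or 3.

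With 3 libraries per group, fold changes of Txnrd2, Prdx2 and Prdx5 carry SEs near 0.1 in log2. TMM, library totals and TPM rest on different assumptions about the total RNA of a cell, which these data do not measure. The cause of the sign changes beyond the shift of all genes was not tested.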
